A study of Mus musculus with 145 samples.

Results

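The NF-kB subunits and their inhibitors were followed across the cell groups of a mouse immune cell expression series. The genes were Nfkb1, Nfkb2, Rel, Rela and Relb (subunits), Nfkbia, Nfkbib and Nfkbie (cytoplasmic inhibitors), Nfkbiz (a nuclear family member) and Tnfaip3 (which encodes the ubiquitin-editing brake A20). Each was read from the probe set annotated to that symbol alone, taking the one with the highest mean where a gene has several. Of the 10 genes, 9 had such a probe set, each of them exactly 1, among 19752 symbols with one; Nfkb1 was not analysed here. Values are intensities on Affymetrix arrays on a linear scale. They rank groups within a gene and not genes against each other, because probes differ in brightness.

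NF-kB is a family of transcription factors that bind DNA as dimers. In resting cells RelA- and c-Rel-containing dimers are held in the cytoplasm by IkappaB proteins such as the products of Nfkbia, Nfkbib and Nfkbie. Signals from antigen receptors, Toll-like receptors and the tumour necrosis factor receptor family activate the IkappaB kinase, the inhibitor is degraded, and the dimer enters the nucleus. In the alternative pathway, the receptors for lymphotoxin beta, RANK ligand and CD40 ligand act through the kinase encoded by Map3k14 to process the Nfkb2 product p100 to p52, which pairs with RelB. This pathway is needed for medullary thymic epithelium. Several of these genes are themselves NF-kB targets, among them Nfkbia, Tnfaip3, Rel, Relb and Nfkb2, so their transcripts are often read together with pathway activity, which the arrays did not measure.

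The series holds 145 arrays in 65 groups of sorted cells: 12 groups had 1 array, 28 had 2, 23 had 3 and 2 had 4. Array medians lay between 112 and 147, so depth in the sense of reads does not apply, and the number of arrays limits the precision. The labels do not say that arrays of a group came from separate animals, so each p-value reflects the spread among the arrays at hand, which may be technical. In such bulk samples fewer cells of a type and less RNA per cell cannot be told apart.

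Mice were mostly labelled C57BL/6 (also written B6 or C57BL/6J) and male. Naive CD4 and CD8 lymph node T cells of mice aged 6 weeks were titled as unstimulated or as taken 1, 5, 24, 48 or 96 h into culture with antiCD3 CD28 beads. The treatment label names the beads for the unstimulated arrays too, and no culture time is given for them, so beads and culture cannot be told apart. Spleen CD4 cells of mice aged 6 weeks were naive, or CD49d+ CD11a+ on day 8 or 30 of LCMV infection. Spleen CD8 cells of mice aged 45 days were OT1 effectors on day 6 of infection titled LisOVA, Tbet+ (labelled CD45.2+) or Tbet- (labelled CD45.1+), and KLRG1+ CD127- or KLRG1- CD127+ cells on day 8. Thymocytes were double-positive (CD4+ CD8+) cells of mice aged 6 weeks, CD69- or CD69+, with fetal CD69- and gamma delta cells titled e17; the age label of the e17 groups reads 5 weeks. Thymic epithelium came at 5 and 8 weeks, and the same marker label (EpCAM+ Ly51+ MHCII+ Sca1+) stands on every group titled Ep., so MEChi, MEClo and CEChi are known from titles only. MEChi cells of mice aged 5 weeks and of mixed sex were also sorted as GFP+ or GFP-, and another group was GFP+ and titled KO; the labels name neither what drives GFP nor the gene knocked out.

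Lymph node stroma of mice aged 6 weeks comprised FRC (gp38+ CD140a+), LEC (gp38+ CD31+) and DN (gp38- CD31-) cells, also 6 days after CFA, and 1 array of FRC from a mixed strain titled Cad11.WT. Macrophages and monocytes came from lung, blood, lymph nodes and liver of mice aged 6 weeks, from visceral fat of mice aged 45 to 52 days, and from the peritoneal cavity of mice of mixed background aged 9 weeks, either Gata6ko or control. The driver of that deletion is not named in the labels. Granulocytes and mast cells came from blood, fat, skin, peritoneal cavity and muscle of mice aged about 6 to 7 weeks. Of 4 peritoneal mast cell arrays, 2 carry blood as source and 1 has unfilled markers, although the group had mast cell genes (Kit at 9019, Cpa3 at 12563).

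Defining markers were present in most groups: Cd3e lay between 4849 and 9989 in the groups of T cells and thymocytes, Aire between 4074 and 4372 in MEChi and GFP+ cells, Prox1 at 2835 in LEC and Ly6g at 6044 in blood neutrophils. Exceptions were blood eosinophils, in which Epx was at 121 while Ccr3 stood at 8127 and Siglecf at 1409. The single B1a array, of mice aged 9 weeks, is labelled CD4+ CD8+ CD69+ but had Cd3e at 156. CD11b+ lung macrophages had Cd4 at 2127 with Cd3e at 158. Both groups of liver macrophages had the endothelial gene Cdh5 at 10292 and 9200.

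Promoter sequence is shown first because many of these genes are known to be regulated by the factors they encode. RefSeq windows (build GRCm38.p6), from 250 bases before to 50 after the start, matched 7 of the 9 genes by symbol; Relb and Nfkbiz had no entry. The kappaB consensus was searched on both strands. The consensus occurred in 4.51% of 32851 windows of the same length. By gene, 5.14% of 27025 genes had the consensus in at least 1 window, and 5 of the 7 did (Nfkbia, Nfkb2, Rel, Tnfaip3 and Nfkbie). A match is a description and not a site, and no match says only that these letters are not in the window.

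The stretches below end at the base before the start, read 5′ to 3′ on the gene's strand, with matches to the kappaB consensus in capitals; overlapping matches are merged. They lie at chr12:55492648-55492767 on the minus strand (Nfkbia), chr19:46304617-46304736 on the plus strand (Nfkb2), chr11:23770970-23771089 on the minus strand (Rel), chr10:19015411-19015540 on the minus strand (Tnfaip3) and chr17:45555580-45555699 on the plus strand (Nfkbie). Nfkb2 and Tnfaip3 have several start sites, and the one with the most matches before it is shown. Rela, at chr19:5637421-5637540 on the plus strand, and Nfkbib, at chr7:28766645-28766764 on the minus strand, are given as the members without a match.
Nfkbia: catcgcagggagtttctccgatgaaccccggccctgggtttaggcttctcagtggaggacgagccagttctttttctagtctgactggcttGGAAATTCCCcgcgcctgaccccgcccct
Nfkb2: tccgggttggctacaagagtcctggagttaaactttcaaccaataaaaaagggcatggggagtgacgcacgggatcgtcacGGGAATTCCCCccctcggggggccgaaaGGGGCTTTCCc
Rel: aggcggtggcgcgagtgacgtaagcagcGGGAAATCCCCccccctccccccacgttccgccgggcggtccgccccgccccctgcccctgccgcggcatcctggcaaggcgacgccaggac
Tnfaip3: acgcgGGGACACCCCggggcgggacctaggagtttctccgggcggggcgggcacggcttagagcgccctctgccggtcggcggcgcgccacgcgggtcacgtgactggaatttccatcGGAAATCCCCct
Nfkbie: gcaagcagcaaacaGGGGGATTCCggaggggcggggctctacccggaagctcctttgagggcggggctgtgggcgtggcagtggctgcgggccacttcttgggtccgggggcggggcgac
Rela: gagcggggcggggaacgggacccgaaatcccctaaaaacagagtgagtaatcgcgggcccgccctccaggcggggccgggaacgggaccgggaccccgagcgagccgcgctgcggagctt
Nfkbib: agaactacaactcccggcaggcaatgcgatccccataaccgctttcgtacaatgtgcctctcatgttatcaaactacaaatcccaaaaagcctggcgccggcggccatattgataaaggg
The Nfkbia match lies 29 to 20 bases before the start. In Nfkb2 the matches end 29 and 2 bases before the start, and in Rel 82 bases before it. Tnfaip3 has a match near each end of its stretch, 125 to 116 and 12 to 3 bases before the start, and Nfkbie has a single one 106 to 97 bases before it.

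Across the 65 groups the genes differed in how widely they varied. The SD of the group means of log2 intensity was 0.37 for Rela and 0.49 for Nfkbib, at the 26.3 and 43.7 percentile of 15557 genes. For the other 7 it lay between 0.78 (Relb) and 1.14 (Nfkbiz), at the 71.9 to the 86.0 percentile. Rela and Nfkbib are the 2 genes without a consensus match above; with 7 windows this is a description only.

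**Figure D1:**
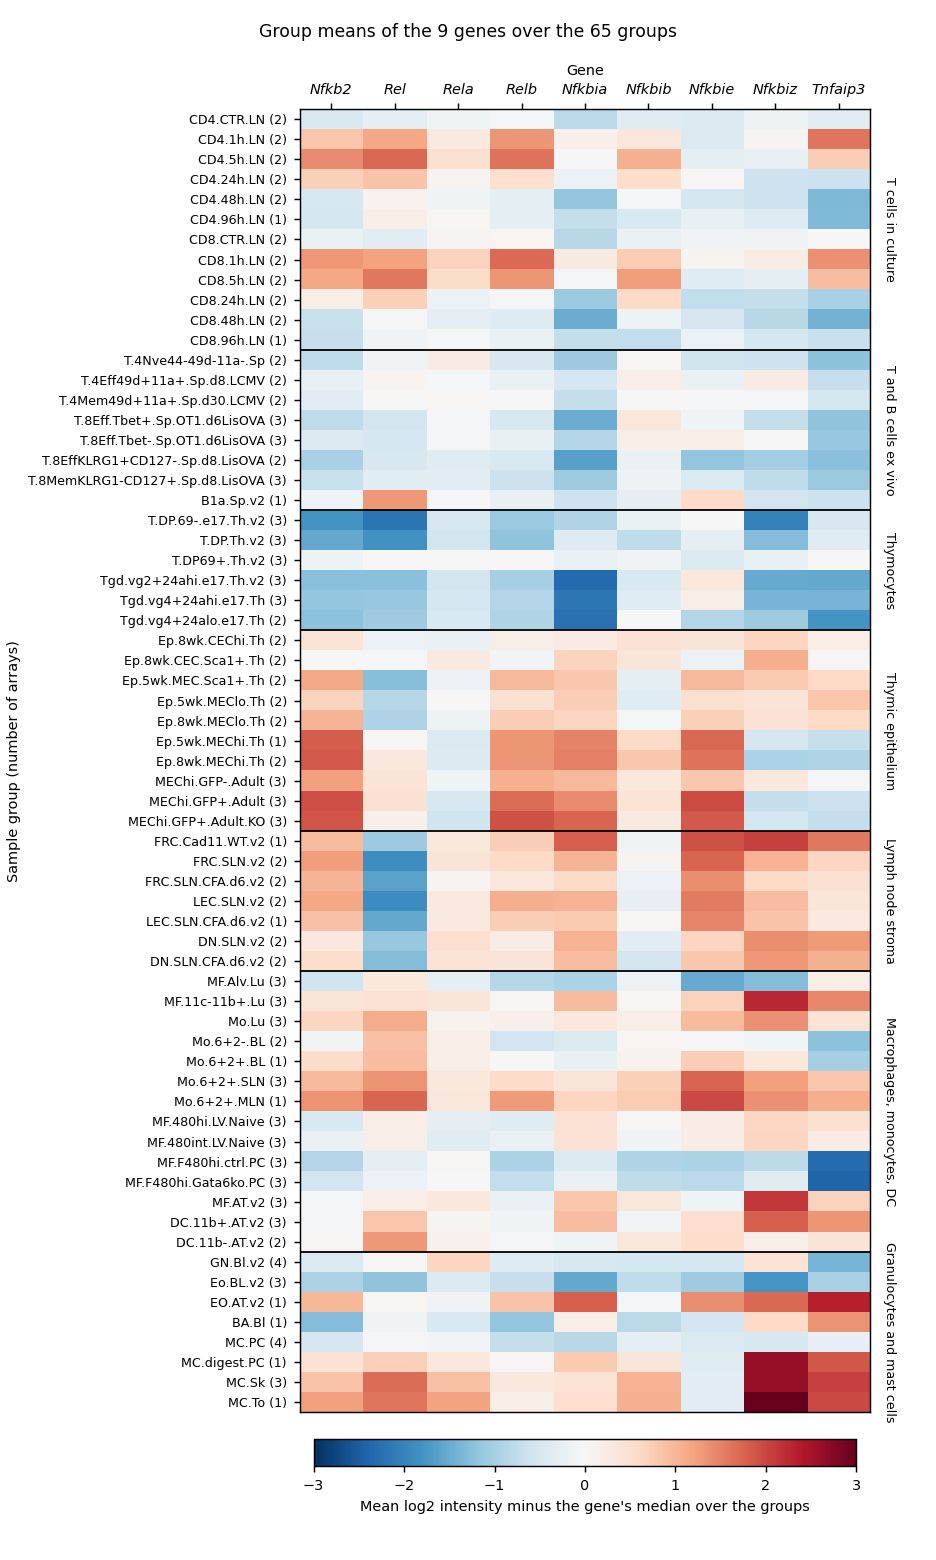
Group means of log2 intensity for the 9 genes (columns) in the 65 groups (rows, number of arrays in brackets), each minus the gene's median over the groups; red is above and blue below that median. Rela and Nfkbib are the palest columns, while Nfkbiz, Tnfaip3 and Nfkbia have the widest ranges.

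Nfkb2, the precursor of p52, was highest in mature medullary epithelium: 2274 ± 114 (SD, n = 3) in GFP+ MEChi, 2225 ± 199 (n = 3) in the KO and 2159 ± 30 (n = 2) in MEChi at 8 weeks. The lowest means were 205 ± 10 (n = 3) in adult and 174 ± 8 (n = 3) in fetal double-positive thymocytes, 13.1-fold below the top. Its partner Relb also had medullary epithelium and double-positive thymocytes at its ends, from 864 ± 150 (n = 3) in the KO MEChi to 100 ± 19 (n = 3) in adult double-positive thymocytes, an 8.61-fold range. Over the 65 groups Nfkb2 and Relb correlated with r = 0.937 (group mean log2, across groups that share tissues and laboratories), the highest of the 36 pairs of members.

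Rel, which encodes c-Rel, the subunit best known from lymphocytes, had another map. It was high in lymph node monocytes (5355 in the single mesenteric array), in T cells after 5 h with beads (5313 ± 369 in CD4 cells, n = 2) and in skin mast cells (5074 ± 59, n = 3). It was low in LEC (433 ± 76, n = 2), FRC (462 ± 194, n = 2) and fetal double-positive thymocytes (351 ± 41, n = 3), a 15.3-fold range. FRC and LEC were thus near the bottom for Rel and near the top for the inhibitor gene Nfkbie, for which DN stroma stood at 704 ± 62 (n = 2). Rel and Nfkbie had the lowest correlation of the 36 pairs (r = -0.09, n = 65). Rela, the widely expressed p65 subunit, ran from 841 ± 165 (n = 3) in the KO MEChi to 2928 in the single muscle mast cell array, 3.52-fold.

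Nfkbia, which encodes IkappaB alpha, was highest in the single arrays of fat eosinophils (8660) and Cad11.WT FRC (8637), then in the KO MEChi (8446 ± 1355, n = 3). It was lowest in fetal gamma delta thymocytes (496 ± 44 in Vg2+ cells, n = 3), 17.5-fold below. Nfkbib (IkappaB beta) ranged 4.45-fold, from 744 ± 73 (n = 3) in control peritoneal macrophages to 3386 ± 1067 (n = 2) in CD8 cells at 5 h. Nfkbie (IkappaB epsilon) ranged 11.1-fold, from 158 ± 18 (n = 3) in alveolar macrophages to 1754 in the single mesenteric monocyte array and 1750 ± 89 (n = 3) in GFP+ MEChi. Nfkbiz, whose product IkappaB zeta acts in the nucleus as a co-regulator, ranged furthest, 41.7-fold, from 151 ± 11 (n = 3) in fetal double-positive thymocytes to 6277 in the single muscle mast cell array. Tnfaip3 ranged 26.6-fold, from 172 ± 24 (n = 3) in Gata6ko peritoneal macrophages to 4551 in the single fat eosinophil array, with skin mast cells at 3747 ± 193 (n = 3).

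Groups next to each other in these orders mostly did not differ beyond their spread. Among the 53 groups with replicates, 46 (Rel) to 50 (Rela, Nfkbib and Nfkbie) of the 52 neighbouring pairs overlapped. The orders are therefore best read by their ends, with the single arrays carrying no spread of their own.

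The genes with the most similar pattern over the 65 groups were named by correlation of group mean log2 intensity among 15557 genes. For Nfkb2 they were Gadd45b (r = 0.787), Birc3 (0.787) and Sik1 (0.761), and for Relb Gadd45b (0.762), Tnip1 (0.735) and Tnfrsf10b (0.701). For Rel they were Nfkbid (0.764), Malt1 (0.688) and Irak2 (0.683), and for Rela Sertad1 (0.713), Nr4a1 (0.698) and Slc35e4 (0.693). The inhibitor genes had other neighbours: Birc3 (0.835), Jun (0.831) and Ppp1r15a (0.810) for Nfkbia, Ciart (0.700), Nup98 (0.672) and Tnf (0.658) for Nfkbib, and Cxcl10 (0.794), Cxcl9 (0.775) and Icam1 (0.774) for Nfkbie. Nfkbiz was closest to Junb, then Fosb (0.811) and Zfp36 (0.794), and Tnfaip3 to Fosb (0.798), Egr1 (0.791) and Ifrd1 (0.773). Every one of these is a correlation over the same 65 groups, which share arrays and tissues.

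Because immediate early genes stood among these neighbours, a list of 9 (Fos, Fosb, Egr1, Junb, Jun, Atf3, Zfp36, Dusp1 and Ier2), chosen after the values were seen, was summed per array. These genes respond within minutes to many stimuli and to cell handling. The log2 of the sum correlated with Nfkbia at r = 0.809, Nfkbiz at 0.783 and Tnfaip3 at 0.703 over the 65 groups. For Nfkb2, Nfkbie, Rela and Relb r lay between 0.436 and 0.594, and for Nfkbib and Rel it was 0.171 and 0.103. The list holds Jun, Junb, Fosb, Zfp36 and Egr1, which were named above as neighbours of Nfkbia, Nfkbiz or Tnfaip3. The higher r of Nfkbia, Nfkbiz and Tnfaip3 thus follows in part from the choice of list and is a description only. The part of the immediate early genes in the results below was not tested. Their sums are given beside the comparisons in which 4 or more of the 9 passed the test in 1 direction.

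**Figure D2:**
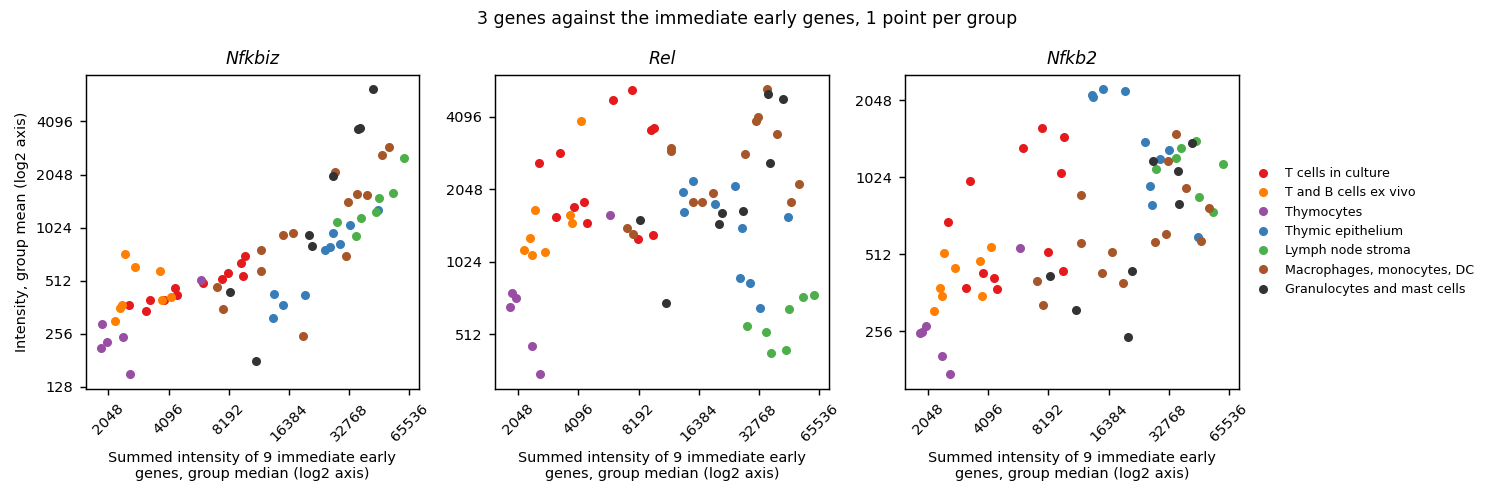
Group mean intensity of Nfkbiz, Rel and Nfkb2 (y, log2 axis) against the summed intensity of the 9 immediate early genes (x, log2 axis, group median), 1 point per group, coloured by cell class. Nfkbiz climbs with the sum, Rel does not, and groups of thymic epithelium (blue) stand at the top for Nfkb2 at middling sums. The sum includes Junb, Fosb and Zfp36, the nearest neighbours of Nfkbiz over the same groups.

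The first comparison asked how the genes respond when naive T cells meet beads that engage CD3 and CD28, which in T cells signal to NF-kB. Changes are log2 fold changes ± SE from limma, called at a Benjamini-Hochberg adjusted p under 0.05 over the probe sets of the fit. Here and below, a statement that arrays do not overlap only describes them. The share of all probe sets without overlap was not counted. In CD4 cells 6 of 9 genes were higher after 1 h, 7 after 5 h and 6 after 24 h. The same counts for CD8 cells were 7, 7 and 3. None was lower at 1 or 5 h. Of 14411 probe sets tested, 20.1% were called at 1 h and 31.2% at 5 h in CD4 cells, 14.5% and 28.9% in CD8 cells. Counting higher calls alone, the shares were 6.38% and 19.3% for CD4 cells, with 5.02% and 15.5% for CD8 cells. After 1 h the 920 higher and 1983 lower calls in CD4 cells became 1394 and 1849 after quantile normalization (723 and 1366 became 910 and 1110 in CD8 cells).

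Tnfaip3 had the largest change of the 9 genes at 1 h in CD4 cells. It stood at 747 and 719 in the unstimulated arrays, 2895 and 2651 at 1 h, 1481 and 1559 at 5 h, 541 and 630 at 24 h and 341 and 378 at 48 h. The 1 h and 5 h arrays lie above and the 24 h and 48 h arrays below both unstimulated ones. The change was 1.92 ± 0.12 at 1 h (adjusted p = 3.3e-08), 1.05 ± 0.12 at 5 h (4.85e-06), -0.33 ± 0.12 at 24 h (0.028) and -1.03 ± 0.12 at 48 h (5.49e-06). From 1 to 5 h it fell by 0.87 ± 0.12 on the log2 scale (adjusted p = 3.2e-05). In CD8 cells it went from 873 and 942 to 2245 and 2460 at 1 h, and was at 335 and 346 at 48 h, again with no overlap. The changes there were 1.37 ± 0.12 (1.44e-06) and -1.41 ± 0.12 (1.76e-07). At 1 h in CD8 cells the changes of Relb (1.65 ± 0.16), Rel (1.53 ± 0.15) and Nfkb2 were larger than that of Tnfaip3 by value.

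By group mean, the subunit genes were highest at 5 h in CD4 cells, but the step from 1 to 5 h was not called for all of them. Rel rose from 1411 and 1244 to 3494 and 3700 at 1 h and 5574 and 5052 at 5 h, then stood at 3090 and 2715 at 24 h. Nfkb2 went from 466 and 413 to 1144 and 991, then 1555 and 1630, and 887 and 1101 at 24 h, and Relb from 230 and 211 to 640 and 502, then 686 and 717, and 285 and 352. All arrays with beads up to 24 h lay above the unstimulated ones for these genes. The 5 h changes were 2.00 ± 0.15 for Rel (adjusted p = 7.38e-08), 1.86 ± 0.13 for Nfkb2 (3.48e-08) and 1.67 ± 0.16 for Relb (7.75e-07). Rela moved least of the called subunits, 0.61 ± 0.15 at 5 h (0.00435), with 1214 and 1095 in the unstimulated and 1714 and 1798 in the 5 h arrays. From 1 to 5 h, 3 genes were called as higher and 1 as lower in CD4 cells, against 35.2% of probe sets (3541 higher and 1538 lower, or 2815 and 2575 after quantile normalization). The step was called for Nfkb2 (0.58 ± 0.13, 0.00219) and Rel (0.56 ± 0.15, 0.00808), and not for Relb (0.31 ± 0.16, 0.144) or Rela. The Rel step was not called in a single fit of all arrays (0.0806), and it was 0.49 without 5 h replicate 1.

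Among the inhibitors, Nfkbib rose most at 5 h in CD4 cells, by 1.44 ± 0.20 (3.54e-05), from 1195 and 962 to 2626 and 3213. Nfkbia was up at 1 h, by 0.96 ± 0.16 (5.67e-04), from 1303 and 1545 to 3046 and 2490, and at 5 h by 0.81 ± 0.16 (9.07e-04). Nfkbie and Nfkbiz were not called at 1 or 5 h in either cell type, with changes between -0.26 and 0.34. The Nfkbib call at 1 h in CD4 cells (0.71 ± 0.20, 0.0191) was lost without replicate 1 or 2 of the 1 h arrays (0.0766 and 0.073) or replicate 2 of the unstimulated ones (0.135). Rela at 1 h in CD4 cells missed the threshold (0.41 ± 0.15, 0.0576). It passed with a replicate block (0.0367) and after quantile normalization (0.0455).

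In CD8 cells the 7 genes called at 5 h were Nfkb2, Rel, Rela, Relb, Nfkbia, Nfkbib and Tnfaip3. Rel went from 1165 and 1400 to 3531 and 3850 at 1 h and 4707 and 4935 at 5 h (1.92 ± 0.15 at 5 h, adjusted p = 1.56e-07). Nfkb2 was at 515 and 527 without beads, 1446 and 1511 at 1 h and 1374 and 1291 at 5 h (2.84-fold at 1 h, adjusted p = 1.39e-06), and Relb went from 246 and 229 to 718 and 775 at 1 h (1.65 ± 0.16, 4.24e-06). These 1 h and 5 h arrays did not overlap the unstimulated ones. Nfkbib at 5 h was at 2631 and 4140 (1.45 ± 0.20, 4.13e-05). Rela rose by 0.60 ± 0.15 at 1 h (0.0106) and 0.47 ± 0.15 at 5 h (0.0234). Both Rela calls were lost without either unstimulated array (adjusted p between 0.0574 and 0.0957), the first also without 1 h replicate 2 (0.0895) and the second without 5 h replicate 2 (0.282). From 1 to 5 h, Nfkbiz (-0.51 ± 0.17, 0.0343) and Tnfaip3 (-0.44 ± 0.12, 0.0104) fell in CD8 cells, 2 of 9 against 27.2% (2465 higher and 1459 lower, or 2071 and 1905 after quantile normalization). The count was 5 after quantile normalization, 1 with no filter, 0 in a single fit of all arrays, 0 without 1 h replicate 2, 1 without 1 h replicate 1 or 5 h replicate 2, and 3 without 5 h replicate 1.

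By 24 h fewer genes stood above the unstimulated level in CD8 cells. In CD4 cells 6 genes were higher (Nfkb2, Rel, Relb, Nfkbia, Nfkbib and Nfkbie) and 2 lower (Nfkbiz and Tnfaip3), against 53.4% of probe sets called. The 8 calls became 5 after quantile normalization, in a single fit of all arrays, and without replicate 2 of the unstimulated or of the 24 h arrays. Quantile normalization shifted the median of all probe sets by -0.125 there, and the 4774 higher and 2918 lower calls became 3686 and 3807. In CD8 cells 3 were higher (Nfkb2, Rel and Nfkbib) and 3 lower (Nfkbie, Nfkbiz and Tnfaip3), against 43.3%. The Nfkb2 call in CD8 cells was lost after quantile normalization (0.25, 0.126) and in the single fit (0.39, 0.0823), and the Nfkbiz call in the single fit (-0.60, 0.15). Quantile normalization added Nfkbia (-0.42, 0.0499) and Rela (-0.41, 0.0217) as lower. Without 24 h replicate 1 the Nfkb2 change was 0.34, and without 24 h replicate 2 that of Nfkbiz was -0.48. Nfkbie stood at 417 and 508 in CD4 and 253 and 283 in CD8 cells at 24 h, from 364 and 314 and 409 and 425 without beads.

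The difference between the responses was tested directly. At 1, 5, 24 and 48 h, 0 of 9 genes were called, against 0.0971%, 0.368%, 0.659% and 0.527% of probe sets; by limma at an unadjusted p under 0.05, 1, 1, 6 and 2 passed. The lowest adjusted p was that of Nfkbie at 24 h, -1.09 ± 0.24 in CD8 relative to CD4 cells (adjusted p = 0.0527, or 0.0483 with a replicate block). Without replicate 1 of the CD4 24 h arrays, Nfkbie (-1.23, 0.0439) and Nfkb2 (-0.93, 0.0347) were called, so the lower calls in CD8 cells at 24 h are not shown to differ from CD4 cells in the full set. Unstimulated CD8 and CD4 cells differed in 0 of 9 genes, against 3.09% (1 at an unadjusted p under 0.05 by limma).

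From 5 to 24 h the genes fell back: 6 of 9 in CD4 cells (33.3% of probe sets called, 11.3% lower) and 7 of 9 in CD8 cells (25.3%, 9.21% lower). The 3177 higher and 1624 lower calls in CD4 cells became 2432 and 2229 after quantile normalization, and 2326 and 1327 in CD8 cells became 1912 and 1802. It added Nfkbiz as lower in CD4 cells, and Nfkbiz and Nfkbie in CD8 cells. The CD4 calls of Rela (-0.39) and Nfkbib (-0.54) were lost with no filter (0.0739 and 0.0645) and in a single fit (0.096 and 0.0773). Without 24 h replicate 1 these changes were -0.24 and -0.45. In CD8 cells Nfkbib changed by -0.66, or -0.33 without 5 h replicate 2. Tnfaip3 led, falling by 1.38 ± 0.12 in CD4 (2.62e-07) and 1.91 ± 0.12 in CD8 cells (7.67e-09), followed by Relb, which fell by 1.15 ± 0.16 (3.42e-05) and 1.36 ± 0.16 (7.75e-06). At 48 h 0 genes were higher than without beads. Those lower were Nfkbiz and Tnfaip3 in CD4 cells (34.5% called) and Nfkb2, Relb, Nfkbia, Nfkbiz and Tnfaip3 in CD8 cells (25%). Quantile normalization shifted the median of all probe sets by -0.133 in CD4 cells at 48 h; 3529 higher and 1444 lower calls became 2504 and 2689, and in CD8 cells 2168 and 1438 became 1949 and 1995. The 2 CD4 calls at 48 h became 1 without replicate 1 of the unstimulated arrays, without either 48 h array, with no filter on dim probe sets and in a single fit of all arrays. The 5 CD8 calls became 2 or 3 without any 1 of the unstimulated or 48 h arrays, and 2 in the single fit.

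**Figure D3:**
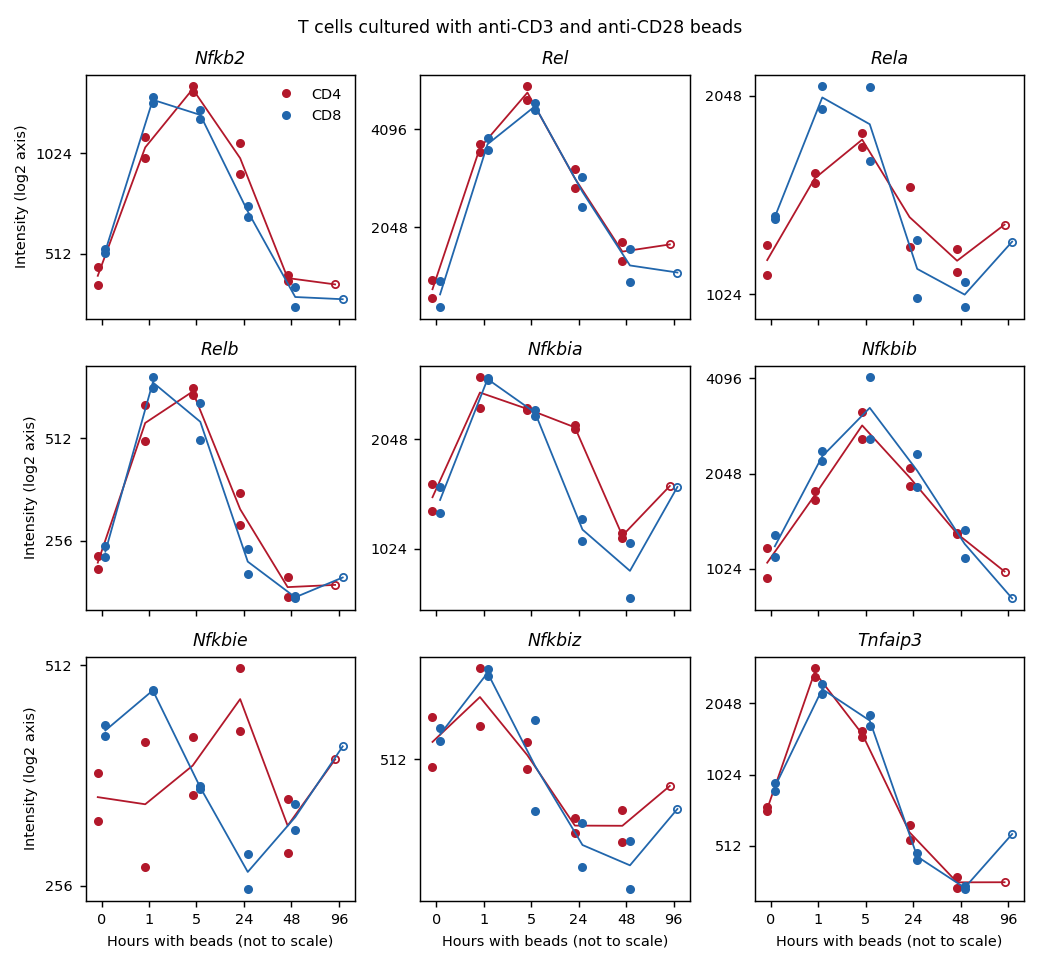
Intensity (y, log2 axis) of each gene by time with beads (x, h, not to scale) in CD4 (red) and CD8 (blue) cells; filled points are arrays, lines join group means and open points at 96 h are single arrays. Tnfaip3 peaks at 1 h and Rel and Nfkbib at 5 h, while Nfkbie and Nfkbiz were not called at 1 or 5 h.

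Other genes of the pathway moved in part. At 5 h in CD4 cells, 2 of 4 other family members and partners were higher and 0 lower, led by Nfkbid, which encodes the nuclear IkappaB NS (2.83 ± 0.15, adjusted p = 2.7e-09). Of 23 kinases and adaptors 6 were higher (Traf1 by 1.15 ± 0.14) and 4 lower (Prkcb by -1.58 ± 0.11), and of 20 brakes 3 were higher and 4 lower (Nlrc3 by -2.01 ± 0.16). Of 14 receptors 4 were higher, among them Tnfrsf9 (4.08 ± 0.12), the costimulatory receptor 4-1BB, and 2 lower. Of 6 ligands 3 were higher (Tnf by 2.17 ± 0.13), and of 26 commonly listed targets 14 were higher and 3 lower, led by the interleukin gene Il2 (5.25 ± 0.38) and its receptor chain Il2ra (5.12 ± 0.21). The median change of the 9 members was 1.05, and that of all probe sets 0.00. The immediate early genes moved over the same course. At 1 h the CD4 arrays had 3 of the 9 called as higher and 2 as lower, and the CD8 arrays 4 and 1. Egr1 was at 1056 without beads, 2105 at 1 h and 1509 at 5 h in CD4 cells. At 5 h, 3 were higher and 3 lower in CD4 and 2 and 4 in CD8 cells. By 24 h, 7 were lower in CD4 and 8 in CD8 cells, with 1 higher in each, and at 48 h 7 were lower and 0 higher in both. From 1 to 5 h, 5 fell in CD4 and 8 in CD8 cells, and from 5 to 24 h 6 and 5, with 0 higher. In CD4 cells the sum of the 9 was 9411 to 9938 without beads, 9256 to 9651 at 1 h, 6781 to 8421 at 5 h, 3059 to 3597 at 24 h and 3641 to 4111 at 48 h. In CD8 cells it was 7657 to 8684, 9271 to 10406, 5283 to 6895, 2413 to 2776 and 3014 to 3328. Their part in the changes of the members was not tested.

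In spleen T cells taken from infected mice the changes were small. In CD49d+ CD11a+ CD4 cells on day 8 of LCMV infection, 4 of 9 genes were higher than in naive cells and 0 lower, against 32.2% of probe sets called. Nfkbiz was at 699 and 759 in the day 8 arrays and 396 and 398 in naive ones (0.87 ± 0.12, adjusted p = 7.64e-04). Nfkbia, at 1635 and 1837 against 1063 and 1285, rose by 0.57 ± 0.15 (0.0172), Nfkb2 by 0.56 ± 0.14 (0.0164) and Tnfaip3 by 0.54 ± 0.13 (0.0117), with no overlap. Without day 8 replicate 2 only Nfkbiz was called, and a single fit of all arrays kept 2. On day 30, Tnfaip3, Nfkbiz, Nfkbie and Relb were higher than in naive cells (0.48 to 0.69, 14.5% called). These 4 calls became 0 without day 30 replicate 1, 1 without replicate 2 and 0 in the single fit. Between day 30 and day 8, 0 were called (8.6%; by limma, 1 at an unadjusted p under 0.05). In that comparison 327 higher and 820 lower calls became 641 and 853 after quantile normalization. Rel did not pass in any of the 3 comparisons (changes -0.08 to 0.19).

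Among day 6 CD8 effectors, Tbet- cells had more Nfkbiz (573, 649 and 608) than Tbet+ cells (335, 408 and 380) and more Nfkbia (1364, 1406 and 1263 against 778, 1043 and 862). Neither gene's groups overlapped, with changes of 0.71 ± 0.12 (adjusted p = 0.00381) and 0.60 ± 0.13 (0.0168). These were 2 of 9 genes, against 9.68% of probe sets. Some genes from the marker lists of other cells differed as well. In Tbet- cells Cd68 of the macrophage list was at 253 against 750 and Itgax of the dendritic cell list at 873 against 2787, both called as lower. Pecam1 of the endothelial list was at 867 against 272, called as higher. Each was the 1 gene of its list tested, and the lists summed to 496 to 517 against 902 to 1173, 1187 to 1343 against 2716 to 3498 and 1112 to 1181 against 523 to 549. Other T cell groups held these genes too. In KLRG1+ CD127- and KLRG1- CD127+ cells Itgax was at 1706 and 1797 and Cd68 at 448 and 431, and naive spleen CD4 cells had Pecam1 at 1368. Further genes of the lists were near the floor in Tbet+ and Tbet- cells (Csf1r 62.7 and 63.1, Flt3 68.8 and 74.2, Cdh5 95.8 and 97.3). Whether the differences in Cd68, Itgax and Pecam1 bear on the 2 calls was not tested. The Nfkbia call was lost without any 1 of the Tbet- arrays (0.0513 to 0.0963), and that of Nfkbiz in a single fit of all arrays (0.0823). Between KLRG1+ CD127- and KLRG1- CD127+ cells 0 of 9 were called (0.382%; by limma, 2 at an unadjusted p under 0.05), and Nfkbie in the single fit (0.0349). The largest difference by size was Nfkbie (-0.75 ± 0.29, 0.557).

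In the thymus, double-positive thymocytes that carry CD69, a marker of recent antigen receptor signalling, were set against CD69- cells. Of 9 genes 7 were higher and 0 lower, against 40.3% of 13825 probe sets called and 19.2% higher. Rel was at 1484, 1545 and 1780 in CD69+ and 466, 506 and 403 in CD69- cells, Nfkb2 at 467, 564 and 595 against 194, 207 and 215, and Relb at 194, 236 and 271 against 92, 86 and 123. No CD69+ array of these 3 genes overlapped the others. The changes were 1.81 ± 0.11 (adjusted p = 3.71e-11), 1.40 ± 0.11 (1.43e-09) and 1.22 ± 0.15 (2.31e-06). Nfkbiz, at 513, 504 and 542 against 235, 258 and 244, rose by 1.08 ± 0.10 (2.36e-08). Nfkbib, Rela and Tnfaip3 rose by 0.66 ± 0.10, 0.55 ± 0.09 and 0.37 ± 0.09, the last not called in a single fit of all arrays (0.426). Nfkbia (0.19 ± 0.11, 0.211) and Nfkbie (-0.15 ± 0.11, 0.317) did not pass.

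Of 4 other family members 3 were higher in CD69+ cells, among them Nfkbid (2.46 ± 0.11) and Bcl3, a nuclear IkappaB that binds p50 and p52. All 6 ligands tested were higher (Cd40lg by 1.85 ± 0.12, Tnf by 1.35 ± 0.13), with 6 of 13 receptors, 11 of 24 kinases and adaptors, 8 of 19 brakes and 11 of 20 targets (Ccr7 by 3.23 ± 0.13). Lower were 0 receptors, 5 kinases and adaptors, 1 brake and 5 targets. Markers of immature thymocytes were lower in CD69+ cells (4 of 4, their sum 3016 to 3262 against 14216 to 15532). Immediate early genes were higher (7 of 9, sum 5652 to 6035 against 2391 to 2451); their part in the result was not tested.

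Fetal double-positive thymocytes had less Nfkbiz than adult ones (138, 161 and 153 against 235, 258 and 244; -0.71 ± 0.10, adjusted p = 1.89e-05), less Nfkbia (1307, 1378 and 1329 against 2033, 1890 and 1799; -0.51 ± 0.11, 0.00173) and less Rel (319, 338 and 397 against 466, 506 and 403; -0.38 ± 0.11, 0.00881). Nfkbib was the one gene higher (1337, 1125 and 1145 against 864, 766 and 817; 0.56 ± 0.10, 2.27e-04). These 4 genes did not overlap between the groups, which was not counted over all probe sets. Of all probe sets, 35.9% were called (3348 higher and 1616 lower, or 2540 and 2255 after quantile normalization). The Rel call was lost without fetal replicate 1 (0.0506), adult replicate 2 (0.0536) and in a single fit (0.213).

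In fetal gamma delta cells titled vg4+, Nfkbie was lower in CD24lo (250 and 240) than in CD24hi cells (566, 440 and 510), with no overlap, by -1.04 ± 0.13 (adjusted p = 4.82e-06). CD24 is lost as these cells mature. Of the 6 genes of the mast cell list, the 2 tested were lower too (Cpa3 at 315 against 4242 and Kit at 131 against 427). The others were near the floor in CD24hi cells (Fcer1a 17.3, Ms4a2 21.5, Mcpt8 30.5, Mcpt4 23.7). The list sum, 522 to 585 against 4540 to 4962, was thus mostly Cpa3 in CD24hi cells. Lower as well were 3 of 4 immature thymocyte markers (sum 237 to 269 against 317 to 937) and Pecam1 of the endothelial list (287 against 920). Their part in the result was not tested. Tnfaip3 was lower by -0.40 ± 0.10 (0.00565), and Nfkbib (0.37 ± 0.11, 0.0231) and Nfkbiz (0.33 ± 0.11, 0.0418) were higher, 4 of 9 genes against 18.8%. Only Nfkbie kept its call throughout: the count was 1 without CD24lo replicate 2, 2 without CD24lo replicate 1 or CD24hi replicate 3, and 1 in a single fit of all arrays. Vg2+ and vg4+ CD24hi cells differed in 0 of 9 genes (0.774%; by limma, 0 at an unadjusted p under 0.05).

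Thymic epithelium gave the highest Nfkb2 of the series, and the step from MEClo to MEChi, the more mature medullary cells by their Aire (272 and 4074), carried it. At 8 weeks Nfkb2 was at 2137 and 2180 in MEChi and 1207 and 1201 in MEClo, Rel at 2138 and 1870 against 908 and 775, and Nfkbia at 7182 and 6865 against 4132 and 3692. Every MEChi array was above both MEClo arrays. The changes were 0.84 ± 0.19 (adjusted p = 0.00482), 1.25 ± 0.14 (3.43e-05) and 0.85 ± 0.21 (0.00711), and Nfkbie (0.91 ± 0.19, 0.00304) and Nfkbib (0.87 ± 0.20, 0.00475) were higher too. Relb, at 620 and 517 against 372 and 386, missed the threshold (0.58 ± 0.24, 0.0764) and passed after quantile normalization (0.0464) and in the single fit (0.0274).

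Tnfaip3 and Nfkbiz went the other way. Tnfaip3 was at 572 and 413 in MEChi and 1571 and 1210 in MEClo (2.83-fold lower, adjusted p = 0.00232), and Nfkbiz at 405 and 246 against 967 and 700 (-1.38 ± 0.35, 0.00915). Neither overlapped. In all 5 genes were higher and 2 lower, against 38.2% of 15068 probe sets called. The Nfkbiz call was lost without MEChi replicate 2 (0.101) or MEClo replicate 1 (0.0764), and the Nfkbia call without MEClo replicate 2 (0.0561). Immediate early genes were lower in MEChi (6 of 9, sum 10332 to 16890 against 25398 to 33755), and their part in the 2 falls was not tested.

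Of 32 targets tested, 22 were higher in MEChi and 1 lower, led by Nos2 (4.37 ± 0.28) and the chemokine gene Ccl22 (4.34 ± 0.24). Receptors were split, 9 higher and 5 lower of 17. Of 23 kinases and adaptors 8 were higher (Traf1 by 1.69 ± 0.23) and 4 lower, and of 6 ligands 3 were higher (Tnf by 2.55 ± 0.22). MEChi are known to transcribe many genes of other tissues, and Ly6g, a neutrophil gene, was at 2839 in them. Marker genes of blood cells therefore do not separate admixed cells from this here.

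CEChi cells, which had the cortical proteasome gene Psmb11 at 3505 against 111 in MEChi, held less of the alternative pathway genes. Nfkb2 was at 719 and 880 in CEChi and 2137 and 2180 in MEChi (-1.44 ± 0.19, adjusted p = 7.75e-05), and Relb at 240 and 281 against 620 and 517 (-1.13 ± 0.24, 0.00214). The arrays did not overlap. Nfkbie and Nfkbia fell by 1.25 ± 0.19 and 1.25 ± 0.21 and Rel by 0.50 ± 0.14, while Nfkbiz (1.60 ± 0.35, 0.00297) and Tnfaip3 (1.10 ± 0.31, 0.0116) were higher, so 7 of 9 were called against 47.9%. Rel was not called without MEChi replicate 1 (0.112) or CEChi replicate 2 (0.0941) or in the single fit (0.0796), nor Tnfaip3 without MEChi replicate 2 (0.102) or CEChi replicate 1 (0.122). CEChi also held more T cell and thymocyte RNA, with the 6 T cell markers at 4206 to 4742 against 802 to 854 and 4 immature thymocyte markers at 708 to 1103 against 179 to 186, and more of the immediate early genes (6 of 9 higher, sum 21429 to 32767 against 10332 to 16890). Their part in these differences was not tested. Sca1+ cells titled CEC and MEC differed from CEChi and MEClo in 0 of 9 genes (13.2% and 6.23%; by limma, 2 and 3 at an unadjusted p under 0.05). Without CEChi replicate 1 or Sca1+ CEC replicate 2 there was 1 call, and without MEClo replicate 1 at 5 weeks there were 3.

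GFP+ and GFP- MEChi, a contrast within MEChi from a separate set of sorts, shared some of the differences between MEChi and MEClo. Rel and Nfkbib, which were higher in MEChi than in MEClo, were not called here. Rel was at 2932, 2015 and 1822 in GFP+ and 3038, 1853 and 1693 in GFP- cells. Nfkbie was at 1736, 1846 and 1669 in GFP+ and 801, 738 and 825 in GFP- cells (1.15 ± 0.11, adjusted p = 1.98e-05), Nfkb2 at 2321, 2358 and 2144 against 1493, 1384 and 1340 (0.69 ± 0.10, 2.59e-04) and Relb at 838, 785 and 587 against 542, 438 and 448 (0.62 ± 0.17, 0.0106). These arrays did not overlap. Nfkbia was higher by 0.45 ± 0.14 (0.0185), and Nfkbiz lower by -1.03 ± 0.30 (0.0145), with GFP+ replicate 6 at 650 inside the GFP- range of 648 to 996. Thus 4 genes were higher and 1 lower, against 49.4% called (4012 higher and 2853 lower, or 3626 and 3359 after quantile normalization). The number of members called is near that share. Samples with the same replicate number deviated together here, and with the number as a block Tnfaip3 (-0.60, 0.028) and Rela (-0.34, 0.0152) were called as well. Without GFP+ replicate 6 Tnfaip3 was called too (-0.99, 0.00384). Without GFP+ replicate 7 the count was 3; the Nfkbia call was lost without GFP+ replicate 6 or 7 or GFP- replicate 8 (0.0568 to 0.0654) and after quantile normalization (0.0962), and the Nfkbiz call without GFP+ replicate 7 or 8 or GFP- replicate 6 (0.0534 to 0.0601).

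Aire stood at 4372 in GFP+, 602 in GFP- and 4102 in the KO cells. Among the pathway genes, the receptor genes Cd40 (1.91 ± 0.13) and Tnfrsf9 (1.84 ± 0.13) and the adaptor Traf6 (1.06 ± 0.09) were higher in GFP+ cells, and 17 of 33 targets were higher and 2 lower. The immediate early sum was 14369 to 24819 in GFP+ and 21044 to 30057 in GFP- cells. Between KO and other GFP+ cells 0 of 9 genes were called, against 19.1% (by limma, 1 at an unadjusted p under 0.05). The lowest adjusted p was that of Nfkbia (0.33 ± 0.14, 0.122), with 9815, 8419 and 7106 in the KO and 7276, 6889 and 5895 in the others.

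**Figure D4:**
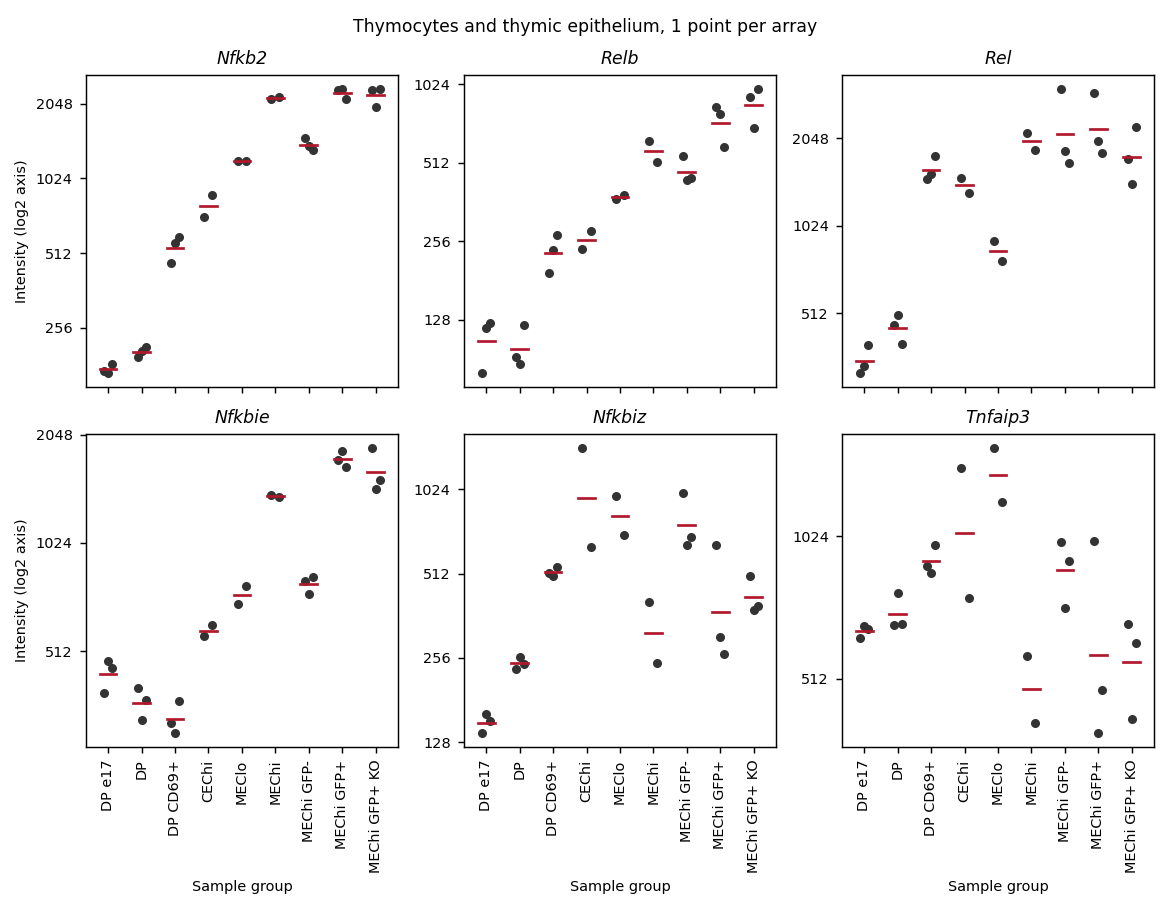
Intensity (y, log2 axis) of 6 genes in thymocytes and thymic epithelium (x), 1 point per array with the group mean as a red bar. Nfkb2, Relb and Nfkbie climb from thymocytes to MEChi GFP+ cells, while Nfkbiz and Tnfaip3 are lower in MEChi and GFP+ cells than in MEClo.

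In lymph node stroma DN cells had less Nfkbie and Nfkb2 than FRC. Nfkbie was at 748 and 660 in DN and 1541 and 1457 in FRC (-1.09 ± 0.13, adjusted p = 1.35e-04), and Nfkb2 at 746 and 756 against 1374 and 1475 (-0.92 ± 0.13, 4.00e-04), with no overlap in either. Tnfaip3 was higher (2630 and 1851 against 1345 and 1512; 0.63 ± 0.18, 0.0211), a call lost without DN replicate 1 (0.113), FRC replicate 1 (0.123) and in a single fit (0.151). These were 3 of 9, against 33.5%. Rel was also called as higher without FRC replicate 2 (1.17, 0.0104) and in a single fit (0.73, 0.0155), and Nfkbib as lower without DN replicate 2 (-0.86, 0.0122). Relb was called as lower with a replicate block (-0.36, 0.049) and without DN replicate 1 (-0.43, 0.0491). Of the fibroblast markers 2 of 4 were lower in DN cells (Pdgfra at 1479 against 4157, list sum 8633 to 12018 against 14574 to 16147). Of 3 macrophage markers 2 were higher and 1 lower (Mertk at 864 against 239, list sum 1314 to 1606 against 1107 to 1121), of 3 neutrophil markers 2 were higher and 1 lower, and the 1 tested marker each of T cells, B cells and mast cells was higher. What these bear on the members was not tested. LEC had more Relb than FRC (480 and 492 against 339 and 347; 0.50 ± 0.13, 0.0122), the one gene called, against 36.3%. That call was lost without any 1 of the 4 arrays (0.0525 to 0.0657) and in the single fit (0.0738). After CFA, 0 of 9 genes were called in FRC (0.00698% of probe sets) and 0 in DN cells (0.0838%, with 10 higher and 2 lower calls, or 10 and 5 after quantile normalization). By limma at an unadjusted p under 0.05, 2 and 0 passed.

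The lung held the widest contrast of Nfkbiz. Alveolar macrophages, which take up surfactant and particles in the airspace, had it at 242, 247 and 257, and CD11b+ lung macrophages at 2604, 2931 and 3338. Nfkbie was at 162, 174 and 139 against 614, 756 and 799, and Nfkbia at 1391, 1101 and 1408 against 4649, 4926 and 4890. Each of these genes was lower in all 3 alveolar arrays. The changes were -3.56 ± 0.14 (adjusted p = 1.97e-12), -2.19 ± 0.14 (1.14e-09) and -1.90 ± 0.11 (3.96e-10). Tnfaip3 (-1.23 ± 0.18), Nfkb2 (-0.98 ± 0.13), Relb (-0.87 ± 0.18) and Rela (-0.67 ± 0.13) were lower too, 7 of 9 in all against 54.2% called and 20.7% lower. Rel (-0.12 ± 0.12, 0.425) and Nfkbib (-0.25 ± 0.14, 0.145) did not pass; Nfkbib did after quantile normalization (-0.38, 0.0472).

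Of 30 targets 17 were lower in alveolar macrophages, led by Ccl2 (-5.28 ± 0.18) and the adhesion gene Vcam1 (-4.91 ± 0.16), and 6 were higher. Other family genes were split, with Bcl3 (-2.56 ± 0.20) and Nfkbid (-0.92 ± 0.19) lower and Nkrf (0.77 ± 0.18) higher. The cytokine genes Il1a (3.13 ± 0.18) and Il18 (3.12 ± 0.17) were higher. All 9 immediate early genes were lower, with sums of 18256 to 19477 against 51289 to 52100. The part of those genes in the result was not tested.

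Against lung monocytes, CD11b+ lung macrophages had more Tnfaip3 (2283, 2365 and 2730 against 1464, 1117 and 1092; adjusted p = 1.68e-04), Nfkbiz (0.91 ± 0.14, 5.65e-05) and Nfkbia (0.64 ± 0.11, 2.00e-04) and less Rel (1971, 2177 and 2311 against 3453, 3564 and 3372; -0.69 ± 0.12, 1.42e-04). These 4 of 9 stand against 49.6%. Arrays did not overlap for any of the 4. Immediate early genes were higher as well (5 of 9 and 0 lower, sum 51289 to 52100 against 38967 to 44611). Of 5 dendritic cell markers 3 were lower and 1 higher (Flt3 at 70 against 620, list sum 8419 to 8749 against 7189 to 13103). Lyve1 of the endothelial list was at 7128 against 68. Other genes of that list were low in CD11b+ lung macrophages (Prox1 93.1, Flt4 65.9, Cdh5 165.8), and fat macrophages also had Lyve1 at 5416. The part of the immediate early and marker genes in the result was not tested.

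Lung monocytes had more of 6 of the 9 genes than blood monocytes and less of none, against 7.69% of 14075 probe sets called and 4.63% higher. Tnfaip3 was at 1464, 1117 and 1092 in lung and 457 and 322 in blood monocytes, Nfkbiz at 1649, 1602 and 1467 against 553 and 605, and Nfkbie at 812, 814 and 990 against 455 and 417. Lung arrays were above both blood arrays for each. The changes were 1.66 ± 0.20 (adjusted p = 8.28e-05), 1.44 ± 0.16 (3.8e-05) and 0.99 ± 0.16 (0.00113), with Nfkbia (0.76 ± 0.13, 0.0016), Nfkb2 (0.71 ± 0.15, 0.00738) and Relb (0.72 ± 0.20, 0.0414) behind. Relb was lost with no filter on dim probe sets (0.0586), with a replicate block (0.0553) and without any 1 of the 5 arrays (0.0642 to 0.251), and Nfkb2 without blood replicate 3 (0.137). Of 30 targets 10 were higher and 0 lower, led by Ptgs2 (4.70 ± 0.24) and Cxcl2, and Il1b was higher by 3.52 ± 0.22. All 9 immediate early genes were higher, with sums of 38967 to 44611 against 11809 to 11959, and their part was not tested. The blood group is titled 6+2- yet labelled MHCII+. It had the MHCII gene H2-Ab1 at 620 and Ciita at 237, against 6842 and 740 in lung monocytes. Tissue and monocyte subset therefore cannot be told apart in this comparison. The single blood array titled 6+2+, not in the comparison, had H2-Ab1 at 8174. In it Nfkb2 was at 872, Relb at 228, Nfkbiz at 763 and Nfkbia at 2121.

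Monocytes of skin-draining lymph nodes had more Nfkbie than those of lung (1599, 1702 and 1225 against 812, 814 and 990; 0.78 ± 0.14, adjusted p = 0.0016) and more Nfkbib (2629, 1961 and 2285 against 1342, 1598 and 1806; 0.54 ± 0.14, 0.0172), with no overlap. These were 2 of 9, against 13.5%. Nfkbib was lost without lung replicate 1 or 2 or lymph node replicate 1 or 3 (0.0513 to 0.0939) and in the single fit (0.0681). Without lymph node replicate 3, which was lowest in Nfkb2, Rel and Relb, 4 genes were called (Nfkbie, Nfkb2, Rel and Relb), and without replicate 2 Rela was called (0.34, 0.0497). Immediate early genes were lower in the lymph node cells (6 of 9 and 0 higher, sum 24816 to 32468 against 38967 to 44611). Of the T cell markers 1 of 2 tested was higher (list sum 500 to 698 against 431 to 518), with the 1 mast cell marker tested, 1 of 2 of neutrophils and 1 of 3 of endothelium. Their part in the result was not tested.

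Peritoneal macrophages had the least Tnfaip3 of the series: 199, 153 and 166 in Gata6ko and 196, 183 and 172 in control cells, which overlap. Gata6 is the transcription factor that sets the identity of these cells. Of the 9 genes 0 were called, against 6.69% (624 higher and 238 lower, or 616 and 419 after quantile normalization). By limma 1 passed an unadjusted p under 0.05, Nfkbiz (423, 491 and 507 against 318, 363 and 389; 0.41 ± 0.12, 0.0832). F480hi and F480int liver macrophages also differed in 0 of 9, against 20.2% (by limma, 0 at an unadjusted p under 0.05). In both liver groups replicate 1 stood apart, with Nfkbiz at 1859 and 1628 against 620 to 734 in the other 4 arrays and Tnfaip3 at 2607 and 2320 against 684 to 878. Immediate early sums in these groups ran from 14639 to 31414 and 15337 to 30485. Without both replicates 1, an alternative chosen after seeing the data, 0 were called again.

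In visceral fat, CD11b+ dendritic cells had more Nfkbiz than CD11b- ones (1426, 2162 and 3118 against 768 and 647; 1.59 ± 0.32, adjusted p = 0.00982), more Nfkbia (1.04 ± 0.26, 0.0269) and more Tnfaip3 (0.95 ± 0.26, 0.0406). These 3 of 9 stand against 15.7%, and no arrays overlapped. None was called without either CD11b- array, and 1 without CD11b+ replicate 3 or 4. The macrophage and monocyte markers summed to 8615 to 11540 in CD11b+ and 3936 to 4186 in CD11b- cells (3 of 5 higher), and this was not tested as a source. Fat macrophages and CD11b+ dendritic cells differed in 0 of 9 (15.6%; by limma, 3 at an unadjusted p under 0.05), with 1 called without CD11b+ replicate 2 or 3 and 3 in a single fit of all arrays. The single fat eosinophil array had Tnfaip3 at 4551 and Nfkbia at 8660, where the 3 blood eosinophil arrays had 326 to 687 and 650 to 1015.

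By intensity, blood eosinophils ranked 56 of 65 groups for both Rel and Rela. Nfkbiz was at 184, 157 and 199 in them and 954, 697, 886 and 708 in neutrophils, Rel at 648, 625 and 814 against 1410, 1746, 1643 and 1747, and Rela at 822, 1013 and 1007 against 1797, 1880, 2052 and 2175. No eosinophil array reached the neutrophils. The changes were -2.16 ± 0.17 (adjusted p = 2e-08), -1.24 ± 0.14 (1.9e-06) and -1.06 ± 0.16 (3.83e-05), with Nfkbia (-1.06 ± 0.17) and Nfkb2 (-0.51 ± 0.17, 0.0265) also lower, 5 of 9 against 38.2%. Over all probe sets, 2545 higher and 3331 lower calls became 2880 and 2702 after quantile normalization. As a percentile of the probe sets on their arrays, eosinophils stood at 89.42 for Rel and 92.23 for Rela. Some groups of higher intensity stood lower by percentile (Rel at 87.25 in DN stroma, Rela at 92.05 in day 8 LCMV CD4 cells). Nfkb2 was lost after quantile normalization (0.198) and without neutrophil replicate 4 or 6 or eosinophil replicate 2 (0.0529 to 0.124). Tnfaip3 (0.42 ± 0.22, 0.15) was called as higher after quantile normalization (0.64, 0.0161) and without eosinophil replicate 3 (0.68, 0.0228). Immediate early genes were lower in eosinophils too (4 of 9 and 0 higher, sum 6855 to 20126 against 20784 to 22354), and their part in the result was not tested. Brakes were lower in 13 of 18 and higher in 1, and of the ligands 6 of 8 were lower, led by Il1b (-5.18 ± 0.38).

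Neutrophils differed from blood monocytes in 3 of 9 genes, against 41.5%: Rel was lower (-0.85 ± 0.16, adjusted p = 2.93e-04), Nfkbib lower (-0.59 ± 0.21, 0.0292) and Rela higher (0.47 ± 0.18, 0.0408). Without either monocyte array only Rel was called. Rela was also lost without neutrophil replicate 5, 6 or 7 (0.0505 to 0.0918) and Nfkbib without replicate 4 or 5 (0.0673 and 0.0557), and Rela with no filter on dim probe sets (0.0611). Nfkbiz was called as higher after quantile normalization (0.54, 0.0229), with the offset of 32 (0.45, 0.047) and without neutrophil replicate 5 (0.0417) or 7 (0.0494), and Nfkb2 as lower in the single fit (-0.36, 0.0416).

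In the direction the comparisons were written, skin against peritoneal mast cells gave the largest rise of any of the 9 genes. The Nfkbiz difference between alveolar and CD11b+ lung macrophages was larger in size (-3.56). Nfkbiz was at 3731, 3854 and 3566 in skin mast cells and 404, 456, 349 and 575 in the peritoneal group, Tnfaip3 at 3537, 3790 and 3916 against 968, 803, 611 and 738, and Rel at 5115, 5006 and 5100 against 1298, 1709, 1509 and 1628. Skin arrays lay above every peritoneal one. The changes were 3.08 ± 0.17 (adjusted p = 5.36e-10), 2.28 ± 0.22 (5.6e-07) and 1.73 ± 0.14 (5.42e-08). Nfkb2 (1.37 ± 0.17), Nfkbib (1.31 ± 0.18), Nfkbia (1.25 ± 0.17), Relb and Rela (0.98 ± 0.16) were higher too, 8 of 9 against 27.9% called and 11.2% higher. Nfkbie was the exception (0.09 ± 0.31, 0.88). The count stayed at 8 without the 2 arrays with blood as source and without the array with unfilled markers.

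A single array of peritoneal mast cells titled digest had Nfkbiz at 3741, Tnfaip3 at 3290, Nfkbia at 4260 and Rel at 2627, each above the 4 other peritoneal arrays, and it has no replicate. The single muscle array had Nfkbiz at 6277 and Rel at 4835. Immediate early genes went with this order: sums were 4537 to 11886 in the peritoneal group, 37036 in the digest array, 36110 to 39119 in skin and 43048 in muscle, and 7 of 9 were higher in skin. Their part in the result was not tested. Among pathway genes, Nfkbid was higher in skin (3.15 ± 0.21), with Peli1 (2.75 ± 0.18), Il6 (5.51 ± 0.26) and Gadd45b (3.58 ± 0.20), while 10 of 31 targets were higher and 2 lower. The macrophage gene Cd68 was at 1014 in skin and 180 in the peritoneal group, with Csf1r at 76 and 71.

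Set against blood eosinophils, the peritoneal group had more of 6 of 9 genes, against 51% called (4921 higher and 2924 lower, or 4175 and 3846 after quantile normalization), led by Nfkbiz (1.29 ± 0.17, adjusted p = 6.49e-06) and Rel (1.14 ± 0.14, 2.82e-06). Nfkb2, Nfkbib and Tnfaip3 were called although their arrays overlapped, and at least 1 of them was lost without any 1 of the eosinophil arrays or of peritoneal replicates 0, 4 and 6. Without the array with unfilled markers Nfkb2 (0.11) and Nfkbib (0.0932) were lost, and without the 2 arrays with blood as source Nfkbie (0.92, 0.0178) and Rela (0.53, 0.0156) were called. Quantile normalization, which shifted the median of all probe sets by -0.116 here, also ended the calls of Nfkb2 (0.276) and Nfkbib (0.134).

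**Figure D5:**
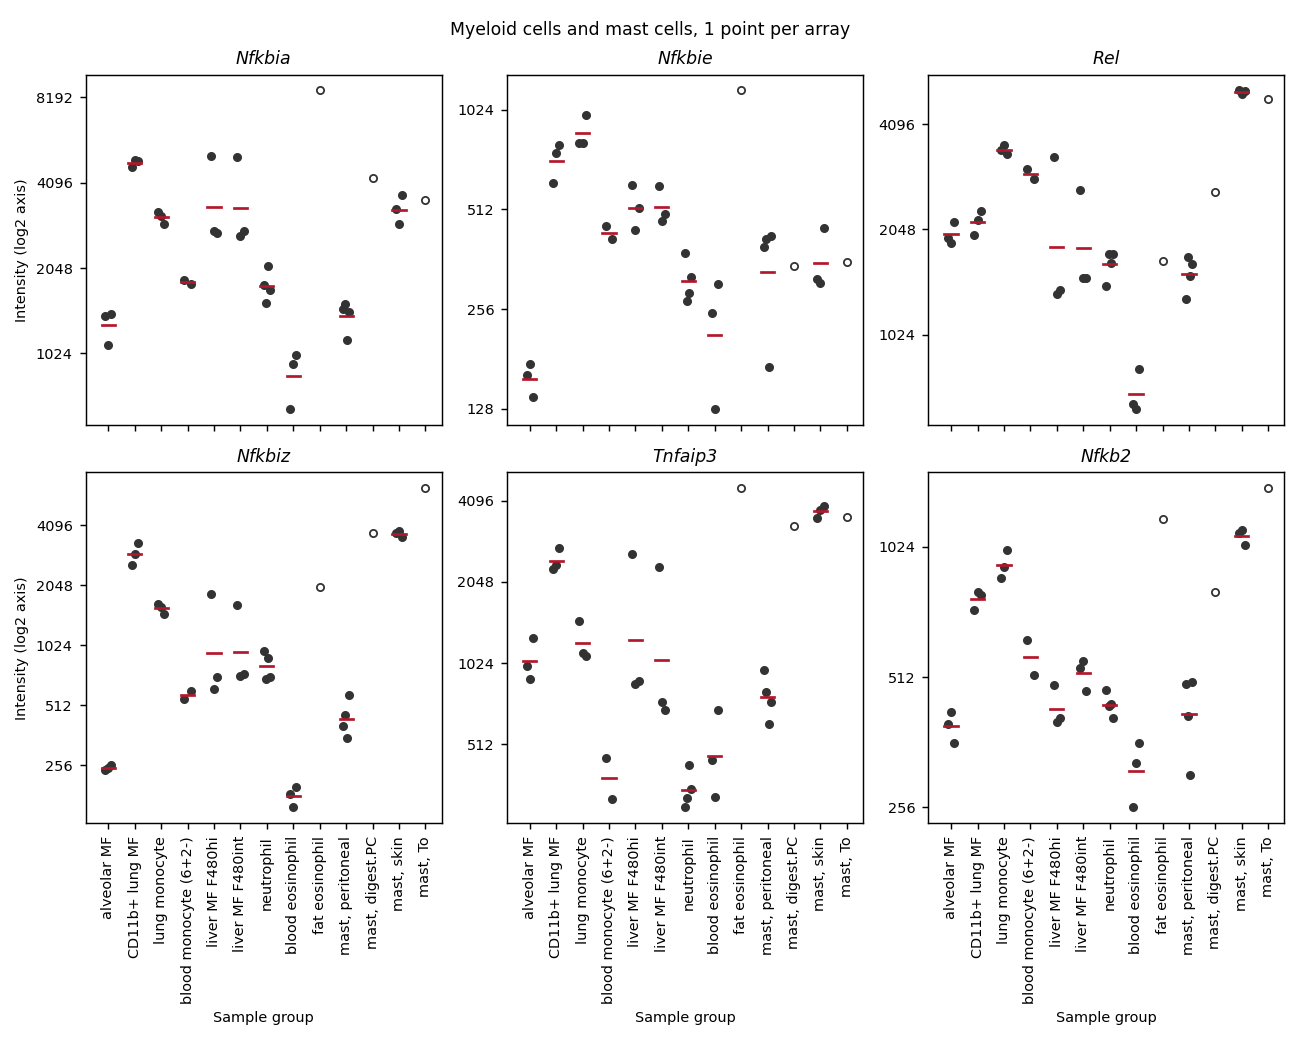
Intensity (y, log2 axis) of 6 genes in myeloid and mast cell groups (x), 1 point per array, group means as red bars and open points for groups of 1 array. Alveolar macrophages and blood eosinophils lie low for Nfkbiz and Nfkbia, and skin mast cells lie high for Nfkbiz, Tnfaip3 and Rel.

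Over the 48 comparisons each gene was tested in every one. Tnfaip3 was called in 25 of them (14 higher, 11 lower), Nfkb2 in 21 (14 and 7), Nfkbiz in 21 (11 and 10) and Nfkbia in 20 (14 and 6). Rel was called in 18 (11 and 7), Nfkbib in 17 (14 and 3), Relb in 16 (11 and 5), Nfkbie in 11 (6 and 5) and Rela in 10 (6 and 4). Many comparisons share groups, so these counts describe the set of comparisons made and are not independent trials.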

How the data were processed

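Affymetrix arrays of 145 samples in 65 groups were used. The authors deposited linear intensity values per probe set, summarised by RMA in Affymetrix Power Tools per the submitters' processing notes; RNA was taken up in TRIzol and labelled with an Affymetrix kit, per the labels. RMA pulls arrays toward a common distribution, so a change shared by most genes may not be seen. The deposited values still differed between arrays, with medians from 112 to 147. Quantile normalization within a fit shifted the median change of all probe sets by up to -0.133, so array-wide differences can enter the changes and orders. The genome build is not given in the sources used here. Exactly 1 gene symbol was given for 21425 of 24922 probe sets.

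The log2 of the deposited intensity was tested with limma 3.58.1 (R 4.3.3, with version 1.17.8 of data.table) in 13 fits of related groups and 48 comparisons. Probe sets whose highest group mean lay under the median of the fit's values were left out, and p-values were Benjamini-Hochberg adjusted over those kept, with 0.05 as threshold. All members are named; of each pathway list only counts, plus at most the 2 highest rises and 2 largest falls among called genes whose groups do not overlap. For each member the 3 single-symbol genes with the highest Pearson correlation of group mean log2 intensity are named. The immediate early genes were added after the values were seen. The members, lists and comparisons were chosen with earlier results of these data known.

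Same-numbered arrays were checked for pairing in 10 comparisons with 3 shared numbers; only GFP+ and GFP- MEChi had every correlation of deviations over 0.1 (0.141 to 0.399). The fits were tested on simulated data. Alternatives were quantile normalization, no filter, an offset of 32, a single fit of all arrays, a replicate block and leaving out each array.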

Additional observations from a re-analysis of the deposited data

Results flagged for a closer look

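Nfkbie in the peritoneal mast cell array numbered 5 was at 171.55, with 394, 416 and 426 in the other 3 arrays. Its gap to the nearest array was 0.913 of the group's range, which marks it as far from the others. Chance marks about 1 in 20 groups in this way. Only the 2 groups of 4 arrays could be checked, for each of the 9 genes, so 1 such mark is about what chance gives. That array has blood as its source in the labels. Without it Nfkbie was higher in peritoneal mast cells than in blood eosinophils (0.95, adjusted p = 0.00505 by limma), where it was not called with it (0.63, 0.096).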

How the results depend on the processing

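No direction reversed among called values. The count of the 9 genes called moved by over 1.5 times as follows. Quantile normalization: CD4 cells at 24 h 8 to 5, CD8 cells 5 against 1 h 2 to 5. No filter: CD4 cells at 48 h 2 to 1, CD8 cells 5 against 1 h 2 to 1. A single fit of all arrays: CD4 cells at 24 h 8 to 5 and at 48 h 2 to 1, CD8 cells at 48 h 5 to 2 and 5 against 1 h 2 to 0, LCMV day 8 against naive 4 to 2 and day 30 against naive 4 to 0, Tbet- against Tbet+ 2 to 1, KLRG1 0 to 1, CD24lo against CD24hi 4 to 1, LEC against FRC 1 to 0, lymph node against lung monocytes 2 to 1, and fat macrophages against dendritic cells 0 to 3. A replicate block: the CD8 against CD4 response at 24 h 0 to 1.

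Leaving out each array gave 5 to 6 for CD4 cells at 24 h (8 in full), 1 to 2 at 48 h (2), 0 to 2 for the response difference at 24 h (0), 0 to 3 for CD8 cells 5 against 1 h (2) and 2 to 3 at 48 h (5). It gave 1 to 5 for LCMV day 8 (4), 0 to 4 for day 30 (4), 1 to 2 for Tbet (2), 1 to 3 for CD24lo (4), 0 to 1 for Sca1+ CEC (0), 0 to 3 for Sca1+ MEC (0), 3 to 5 for GFP (5) and 0 to 0 for LEC (1). It gave 1 to 4 for lymph node monocytes (2), 0 to 3 for fat dendritic cells (3), 0 to 1 for fat macrophages (0) and 1 to 3 for neutrophils (3). Where 1 array was left in a group, it was assumed to vary like the other groups.

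Of 432 values per gene and comparison, 404 kept direction and side of the threshold after quantile normalization, 420 without the filter, 430 with the offset and 392 in the single fit, and 349 of 360 with the replicate block. Of the 10 comparisons with 3 shared numbers, the pairing by number held for the GFP sorts, where the block made 5 calls 7. In 26 comparisons with 2 shared numbers the correlation of same-numbered deviations ran from -0.588 to 0.61 and was over 0.1 in every pair of 16, checked after seeing the data; 2 pairs were not taken to show pairing. Equal numbers of the fat groups also share an age in the labels, and there the block left fat macrophages against dendritic cells at 0 calls. Other single-symbol probe sets could not be tried, since each gene has 1.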
